A study of Mus musculus with 2 samples.

Results

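A set of 9 genes of macrophage and myeloid identity was examined in brown adipose tissue. It held Adgre1, Csf1r, Csf1, Cd163, Mrc1, Itgam, Lyz1, Lyz2 and Mpeg1, chosen by name with their values in these libraries already known. All 9 were among the 628 genes of the only expression table analysed here. The table holds 2 RNA-seq libraries, 1 labelled fl/fl and 1 labelled 3bKO, both of strain C57BL/6 after 20 weeks of a diet with 60% fat. The labels name neither the gene behind 3bKO, the Cre line, the sex nor the age, and do not say whether tissue of several mice was pooled. The name of the deposited table sets Myf5 against D3b, while its columns are headed fl/fl and 3bKO, so every direction here rests on those headings. Values are FPKM, the fragments of a gene per length of its transcript and per mapped fragments in the whole library, a level per length that can be compared between genes within a library. Since each genotype has 1 library, no replicate error and no test can be given, and each ratio compares 2 libraries rather than 2 genotypes. Library depth was not stated in the labels or the table, so no value has a counting interval.

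Macrophages are among the most numerous immune cells of adipose tissue, where they clear dead cells, lipid and debris. Their survival depends on the receptor encoded by Csf1r, which binds the growth factor encoded by Csf1 made largely by other cells of the tissue. Resident macrophages are recognised by the surface proteins F4/80 (Adgre1), the mannose receptor CD206 (Mrc1) and the hemoglobin scavenger receptor CD163, and myeloid cells in general by the integrin CD11b (Itgam). Lysozyme (Lyz1 and Lyz2) and the pore-forming protein perforin-2 (Mpeg1) act on engulfed bacteria. The transcription factor PU.1, a member of the ETS family, is required for the development of macrophages. The RNA came from whole tissue, in which fewer cells of a type and less RNA per cell cannot be told apart.

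The sequences shown first are those of the lysozyme pair, because the near-identity of its members bears on how their fragments can be assigned, and of the Mrc1 promoter, which carries the same ETS core. Lyz1 and Lyz2 lie next to each other on the minus strand of chromosome 10, with 10596 bases between their starts. Promoters were taken from RefSeq on GRCm38.p6, the build that mm10 names, from 250 bases before the annotated start to 50 after it, and 7 of the 9 genes matched. Adgre1 and Csf1r are named only. Capitals mark the ETS core GGAAGT on either strand, which reads ACTTCC here. The windows are chr10:117292819-117293118 (Lyz1, minus strand), chr10:117282223-117282522 (Lyz2, minus strand) and chr2:14229164-14229463 (Mrc1, plus strand).
Lyz1: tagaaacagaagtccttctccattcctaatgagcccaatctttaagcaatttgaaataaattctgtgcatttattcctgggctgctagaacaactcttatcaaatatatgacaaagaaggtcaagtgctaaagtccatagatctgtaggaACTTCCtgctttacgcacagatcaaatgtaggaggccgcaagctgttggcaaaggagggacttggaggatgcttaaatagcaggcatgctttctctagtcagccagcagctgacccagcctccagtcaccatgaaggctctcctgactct
Lyz2: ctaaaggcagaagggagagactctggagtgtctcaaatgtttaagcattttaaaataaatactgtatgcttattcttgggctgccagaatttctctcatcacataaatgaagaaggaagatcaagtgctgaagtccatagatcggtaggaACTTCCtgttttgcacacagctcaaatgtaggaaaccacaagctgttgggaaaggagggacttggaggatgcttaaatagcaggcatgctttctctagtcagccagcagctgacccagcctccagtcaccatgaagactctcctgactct
Mrc1: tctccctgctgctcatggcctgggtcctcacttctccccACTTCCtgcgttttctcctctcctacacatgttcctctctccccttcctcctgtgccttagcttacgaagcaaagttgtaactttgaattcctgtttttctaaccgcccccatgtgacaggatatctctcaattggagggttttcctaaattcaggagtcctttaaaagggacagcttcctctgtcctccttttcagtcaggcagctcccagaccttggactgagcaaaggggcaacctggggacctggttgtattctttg
The core stood at the same place in both lysozyme promoters, from -100 to -95 with the start base as 0, and from -211 to -206 in Mrc1. The promoters of Lyz1 and Lyz2 were the same at 201 of 300 bases without gaps. The core was present in 3 of 7 promoters of these genes and in 23.8% of the 32851 promoters in RefSeq. The longer PU.1 core GAGGAAGT, which contains the ETS core, was in 0 of 7 and in 3.20% of all promoters. The C/EBP letters TTNNGCAA occurred in 1 of 7, Lyz1 from -209 to -202, and in 10.8% of all, and the TATA box letters TATAAA occurred in 0 of 7 and in 13.6%. All motifs were searched on both strands, and a match describes the letters only.

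The coding sequences of Lyz1 and Lyz2, from GENCODE vM1 transcripts on NCBIM37, differed at 22 of 447 bases, an identity of 95.1%. Their longest identical stretch was 118 bases, from coding base 276 to coding base 393 of both genes, and is shown because a fragment inside it fits either gene.
Lyz1 and Lyz2: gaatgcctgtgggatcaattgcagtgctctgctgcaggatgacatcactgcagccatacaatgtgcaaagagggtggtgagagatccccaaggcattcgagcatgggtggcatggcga
Of all 50-base windows of the Lyz1 transcript, 16.0% were found whole in Lyz2, and 15.4% of those of Lyz2 were found in Lyz1. For windows of 100 bases the shares were 2.06% and 1.98%. Of the other 7 genes, Itgam shared 0.294% of its 50-base windows with other genes, Cd163 0.0225%, and the other five 0. The labels do not state the read length, so the values of Lyz1 and Lyz2 are uncertain as separate genes, and their joint ratio is given beside their own.

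All 9 genes had a higher FPKM in the 3bKO library as deposited, although 6 of the 9 ratios lie below the median ratio of the table. That median takes in genes of low level. Among genes higher in 3bKO with both values below 5 FPKM, the median log2 ratio was 2.52. By the higher value, it was 1.17 from 5 FPKM, 0.96 from 10, 0.87 from 20 and 1.04 from 50 upward. Whether the set differs from genes of like level was not tested. Of all 628 genes of the table, 81.5% were higher in 3bKO, and 47.1% were over 2-fold higher. No gene of the set stood at the floor of the table (0.01 FPKM), and all 9 had at least 1 FPKM in both libraries. The ratio of 3bKO over fl/fl ran from 1.73 for Csf1 to 2.47 for Mpeg1, with a median of 1.90. On the log2 scale the ratios ran from 0.79 to 1.31, with a median of 0.92 and an SD over the genes of 0.16. This SD describes how alike the genes are and is not an error of any value. The genes were chosen with their values known, from a table with no absolute log2 ratio below 0.50. Of the table, 185 genes (29.5%), the set included, had ratios within the range of the set. The summed FPKM of the 9 genes was 180.5 in fl/fl and 382.8 in 3bKO, most of it from Lyz2. Without Lyz2 the sums were 62.9 and 123.6, a ratio of 1.97.

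**Figure D1:**
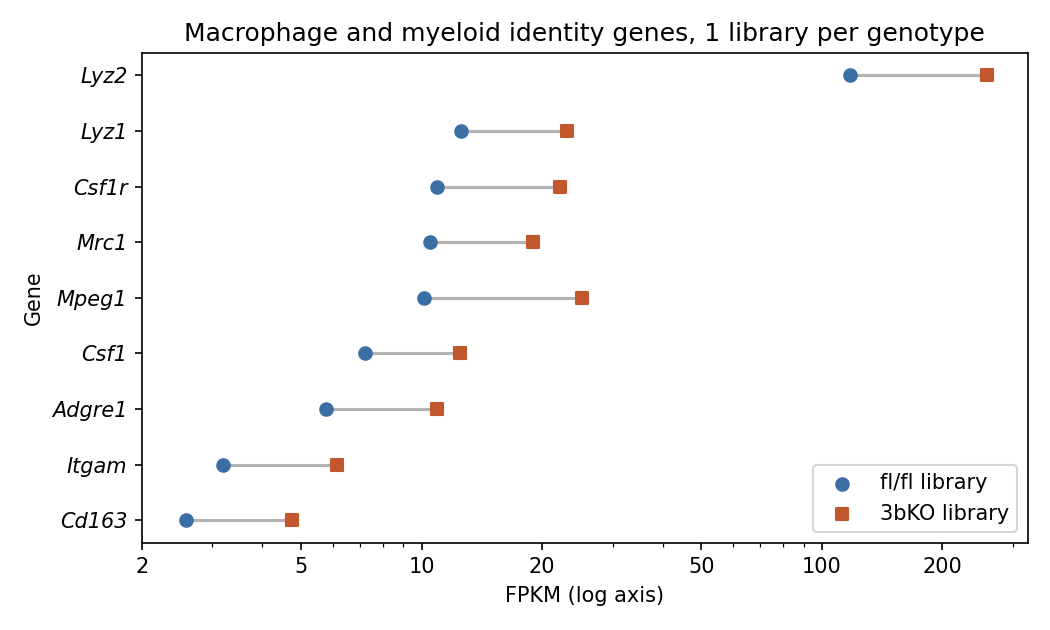
FPKM on a log axis of the 9 genes in the fl/fl library (circles) and the 3bKO library (squares), 1 library per genotype, with a line joining the values of a gene. Every square lies to the right of its circle, with ratios from 1.73 (Csf1) to 2.47 (Mpeg1). Lyz2 stands apart at 118 and 259 FPKM. Of the 9 ratios, 6 lie below the median ratio of all genes in the table, which takes in genes of low level.

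The order of the levels was nearly the same in both libraries. In fl/fl, Lyz2 was highest, followed by Lyz1, Csf1r, Mrc1, Mpeg1, Csf1, Adgre1, Itgam and Cd163. In 3bKO, Mpeg1 moved from rank 5 to rank 2, and the remaining genes kept their order among themselves. Lyz1, Csf1r, Mrc1 and Mpeg1 lay between 10.2 and 12.5 FPKM in fl/fl. Without replicates, the order among these 4 genes cannot be set against an error.

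Of the surface receptors of resident macrophages, Adgre1 encodes F4/80, the adhesion receptor by which mouse macrophages are usually sorted. It lies on chromosome 17 of GRCm38.p6 from 57358581 to 57483529. Its level was 5.75 FPKM in fl/fl against 10.9 FPKM in 3bKO, a ratio of 1.90. Mrc1, an endocytic receptor for mannose-bearing glycoproteins, lies on chromosome 2 from 14229414 to 14332023. It was 10.5 FPKM in fl/fl against 19.0 FPKM in 3bKO, a ratio of 1.81. Cd163, which takes up hemoglobin bound to haptoglobin, lies on chromosome 6 from 124304636 to 124330529. It had the lowest level of the set, 2.58 FPKM in fl/fl against 4.74 FPKM in 3bKO, a ratio of 1.84. The balance of these receptors differed little between the libraries. Mrc1 was 4.07 times Cd163 in fl/fl and 4.01 times in 3bKO, and 1.83 and 1.74 times Adgre1.

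Csf1r encodes the tyrosine kinase receptor for macrophage colony-stimulating factor and lies on chromosome 18 from 61105572 to 61131139. Its level was 10.9 FPKM in fl/fl against 22.2 FPKM in 3bKO, a ratio of 2.03. The ligand gene, Csf1, lies on chromosome 3 from 107741048 to 107760469 and was 7.23 FPKM in fl/fl against 12.5 FPKM in 3bKO. Its ratio of 1.73 was the lowest of the 9. The receptor was thus 1.51 times the ligand in fl/fl and 1.77 times in 3bKO. Of 14 genes listed for this receptor axis and the myeloid growth factors, 5 were in the table, and 3 of those 5 were over 2-fold higher in 3bKO, where the table's own share was 47.1%. Beside Csf1r these were Tyrobp, an adaptor of activating receptors, at 16.8 FPKM and 40.0 FPKM, and Csf2ra, a chain of the GM-CSF receptor, at 6.0 FPKM and 12.3 FPKM. Csf2rb, the signaling chain of that receptor, was 4.38 FPKM in fl/fl against 7.66 FPKM in 3bKO. The second ligand of the receptor, Il34, was among the 9 listed genes not analysed here.

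Itgam encodes the alpha chain of CD11b/CD18, which binds complement-coated particles and endothelial ligands. It lies on chromosome 7 from 128062640 to 128118491 and was 3.19 FPKM in fl/fl against 6.14 FPKM in 3bKO, a ratio of 1.92. Its partner Itgb2, the beta chain shared by the leukocyte integrins, was 5.37 FPKM and 11.6 FPKM. The beta chain was 1.68 times the alpha chain in fl/fl and 1.88 times in 3bKO. Of 18 genes of myeloid integrins and adhesion, 8 were in the table, Itgam included. All 8 were higher in 3bKO, 5 of them over 2-fold, against 81.5% and 47.1% of the whole table. Laptm5, a lysosomal membrane protein of blood cells, was 12.9 FPKM in fl/fl against 28.9 FPKM in 3bKO, and the actin-bundling Lcp1 was 12.97 FPKM and 28.7 FPKM. Ptprc, which encodes the pan-leukocyte marker CD45, was 4.01 FPKM and 7.21 FPKM, a ratio of 1.80.

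Lyz2 encodes lysozyme M, which cleaves the cell wall of bacteria and is abundant in macrophages and neutrophils. It lies on chromosome 10 from 117277541 to 117282272 and had the highest level of the set, 118 FPKM in fl/fl against 259 FPKM in 3bKO, a ratio of 2.20. In fl/fl its level exceeded 95.7% of the genes in the table. Lyz1, which encodes lysozyme P, the form of intestinal Paneth cells in the mouse, lies from 117287795 to 117292868 and was 12.5 FPKM in fl/fl against 23.1 FPKM in 3bKO, a ratio of 1.84. Lyz2 was 9.40 times Lyz1 in fl/fl and 11.2 times in 3bKO. Taken as 1 gene, the lysozymes had a log2 ratio of 1.12, against 1.14 for Lyz2 and 0.88 for Lyz1. Mpeg1, which encodes perforin-2, lies on chromosome 19 from 12460770 to 12465285 and was 10.2 FPKM in fl/fl against 25.1 FPKM in 3bKO. Its ratio of 2.47 was the highest of the 9, and 205 genes of the table had a higher one.

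Of the 9 genes, 3 (Mpeg1, Lyz2 and Csf1r) were over 2-fold higher in 3bKO and 0 were over 2-fold lower. Of all 628 genes, 47.1% were over 2-fold higher and 4.46% over 2-fold lower, and 81.5% were higher at any listed ratio. The share of these genes past 2-fold was 33.3%, below the 47.1% of the table, which takes in genes below 1 FPKM. At a minimum of 1 FPKM in both libraries, 174 genes of the table, the set included, were over 2-fold higher. Outside the set, 489 genes with a symbol met that minimum, as did all 9 genes of the set. The table's share was thus lower there, and the 33.3% of the set lay close to it. The set's median log2 ratio of 0.92 lay beside the table's median of 0.96. Relative to that median, Mpeg1 stood at 0.35, Lyz2 at 0.18 and Csf1r at 0.063, and the other 6 genes stood between -0.17 (Csf1) and -0.014 (Itgam). No gene of the set was over 3-fold higher, whereas 27.9% of the table was. That share takes in genes below 1 FPKM and 19 of the 20 listed skeletal muscle genes. The 3 genes past 2-fold and the 6 short of it do not form separate groups: Csf1r, just inside, had a ratio of 2.03, and Itgam, just outside, of 1.92. The genes of the table with at least 1 FPKM in both libraries whose log2 ratio was nearest to the median of the set, over 2 libraries and 489 candidates, were Mmp12 (0.93), Btg3 (0.93) and Plxdc2 (0.91).

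The table was a selection, by its name one filtered on differential expression, which limits what these ratios can show. Shares of higher or lower genes given here are shares among selected genes, not among all expressed genes. Its smallest absolute log2 ratio was 0.50, so that a smaller difference could not appear, and among the 126 genes below 5 FPKM in both libraries the smallest was 0.68.

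**Figure D2:**
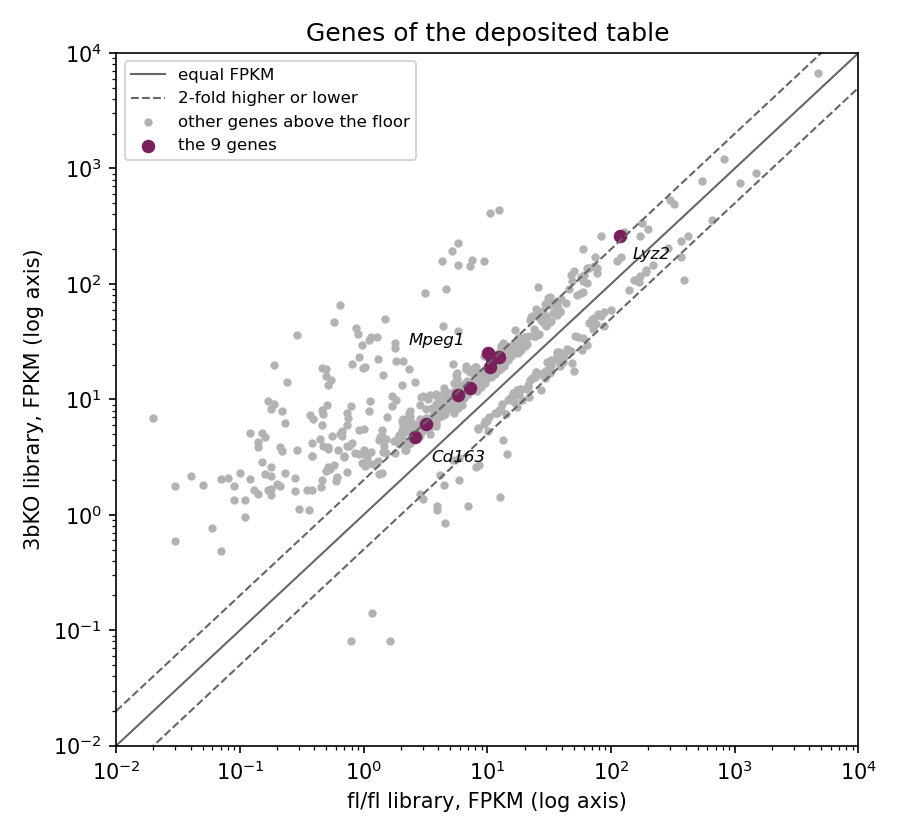
FPKM in the fl/fl library (horizontal) and the 3bKO library (vertical), both on log axes, for the 605 genes of the table above the floor in both libraries, with the 9 genes in purple, the line of equal FPKM and dashed lines at 2-fold. The 9 genes lie along the upper dashed line within a dense band of other genes, 3 above the dashed line and 6 below it, and the gap around the line of equal FPKM spans differences smaller than any in the table.

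To compare the genes with each other within a library, each was expressed relative to Adgre1, the general marker of mouse macrophages. Itgam, Lyz1, Cd163 and Mrc1 differed by 0.07 or less on the log2 scale in this balance between the libraries. Itgam was 0.555 times Adgre1 in fl/fl and 0.563 times in 3bKO. Mpeg1 differed most, at 1.77 times Adgre1 in fl/fl and 2.30 times in 3bKO, followed by Lyz2 at 20.5 and 23.8 times. Csf1r was 1.90 and 2.03 times Adgre1. Csf1 was the gene with the largest shift downward, at 1.26 times Adgre1 in fl/fl and 1.15 times in 3bKO. How far such a balance varies between mice of 1 genotype is not known from these libraries.

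**Figure D3:**
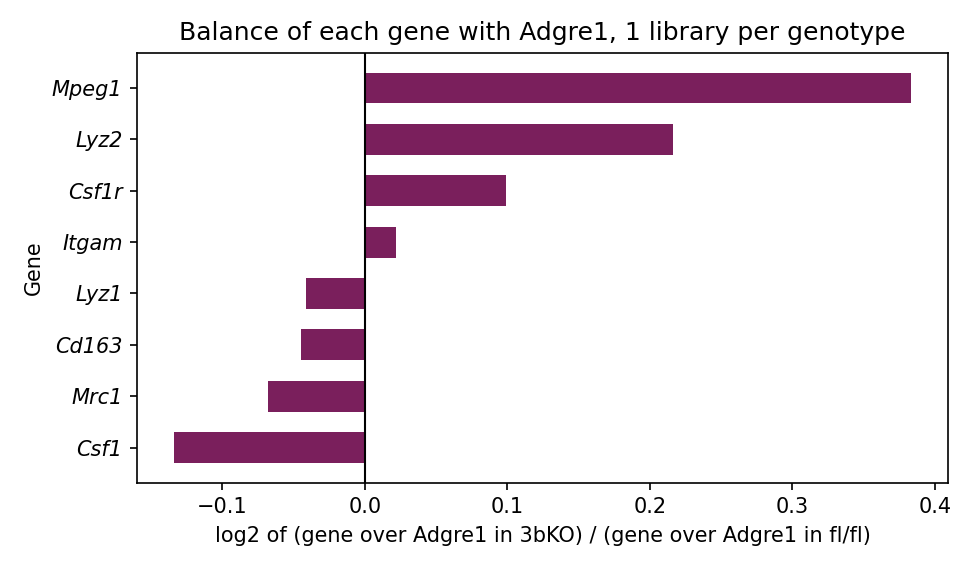
Difference between the libraries in the level of each gene relative to Adgre1, as the log2 of its balance in 3bKO over that in fl/fl, 1 library per genotype. Bars to the right are genes that were higher relative to Adgre1 in 3bKO, up to 0.38 for Mpeg1, and bars to the left genes that were lower, down to -0.13 for Csf1.

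Further macrophage genes were counted from 7 lists that include the set, 125 genes in all. Of these, 40 were in the table, all 40 higher in 3bKO and 22 over 2-fold, and the other 85 were not analysed here, so nothing is said of them. The 22 were 55.0% of the 40, beside the 47.1% of the whole table, of which 81.5% was higher. The table's share takes in more genes of low level. At a minimum of 1 FPKM in both libraries it fell by more than the share of the 40, of which only Egr2 and Siglec1 dropped out. A difference at like level was not tested. The 31 genes outside the set had a median log2 ratio of 1.04, against 0.92 for the set and 0.96 for the table. Of 34 genes of resident macrophage identity, 12 were in the table, 5 of them over 2-fold higher. The set itself gave 5 of the 12. The share past 2-fold was 41.7%, beside the table's 47.1%. At a minimum of 1 FPKM in both libraries, which of this list only Siglec1 failed, 4 of its genes and 174 of the table were over 2-fold higher. Outside the set, 489 genes with a symbol met that minimum. Both shares were lower there and lay close together. The complement C1q genes were the most abundant of the 12. C1qa was 33.5 FPKM in fl/fl against 68.6 FPKM in 3bKO, C1qb was 36.5 FPKM and 70.4 FPKM, and C1qc was 39.7 FPKM and 73.5 FPKM. Cd68, a lysosomal glycoprotein used as a macrophage marker, was 22.8 FPKM and 51.9 FPKM. Of the rest, 3 are named after their values were seen. Stab1, a scavenger receptor, was 7.82 FPKM and 13.9 FPKM, F13a1, the A subunit of clotting factor XIII, was 7.65 FPKM and 12.4 FPKM, and Siglec1, which binds sialic acid, was 0.60 FPKM and 1.98 FPKM. Lyve1, Timd4 and Folr2, which mark long-lived resident macrophages, were among the 22 listed genes not analysed here.

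Of 32 genes of phagosome killing and the lysosome, 11 were in the table, all 11 higher in 3bKO and 7 over 2-fold, beside 81.5% and 47.1% of the table. Of the 11, 3 belong to the set (Lyz1, Lyz2 and Mpeg1). Laptm5 was also counted in the adhesion list, and Atp6v0d2 in the list of lipid-associated macrophages. Ctss, a protease that prepares antigens for MHC class II, was 24.6 FPKM in fl/fl against 60.6 FPKM in 3bKO, whereas the lysosomal protease Lgmn was 32.8 FPKM and 47.7 FPKM. Cyba and Cybb, the membrane subunits of the phagocyte oxidase, kept a balance of 3.56 in fl/fl and 3.54 in 3bKO. Of 15 genes of lipid-associated macrophages, 6 were in the table and 5 over 2-fold higher, beside 47.1% of the table, with a median log2 ratio of 1.35. This median lay above the 0.92 of the set and the 0.96 of the table, but the genes of both lists were picked with their values known, and neither difference was tested. Of 19 transcription factors of macrophages, Maf was 5.17 FPKM in fl/fl against 10.1 FPKM in 3bKO, and Egr2, which other cells also induce on stimulation, was 0.46 FPKM and 1.99 FPKM. Spi1, the gene of PU.1, was among the 17 not analysed here.

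Few markers of other leukocytes were among the genes analysed. Of 14 neutrophil genes and 16 lymphocyte genes, 0 were analysed here. Of 14 monocyte genes, 1 was analysed, Nr4a1, a nuclear receptor that many stimulated cells induce, at 17.4 FPKM in fl/fl against 8.53 FPKM in 3bKO. The dendritic cell list had Fscn1, at 10.3 FPKM and 17.6 FPKM, as its 1 gene of 11, and the mast cell and eosinophil list had Kit, at 1.94 FPKM and 4.10 FPKM, as its 1 gene of 10. A gene not analysed here may have any level, so these counts say nothing on whether such cells were present.

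Markers of non-immune cells differed between the libraries too. All 20 skeletal muscle genes were in the table and higher in 3bKO, as were 81.5% of its genes, with a summed FPKM of 202.5 in fl/fl and 2628 in 3bKO and a median log2 ratio of 4.91 over the 18 genes above the floor. All 16 fibroblast and matrix genes were in it and higher, with sums of 351.6 and 675.1 and a median of 0.93, next to the 0.92 of the macrophage set. The lists were chosen with earlier results of these data known, so the full presence of these 2 lists is not a result. Of 15 brown adipocyte genes, 3 were in the table and all 3 were lower in 3bKO (Kcnk3, Dio2 and Ppargc1a), with sums of 158.6 and 92.7. Only 1 of them, Dio2, was over 2-fold lower, beside 4.46% of the table. Kcnk3 had a log2 ratio of -0.52, close to the table's smallest absolute one of 0.50. Ucp1, Adipoq and Fabp4 were among the 12 not analysed here, so that the labelled tissue was not checked by them. Of 9 red blood cell genes, 3 were in the table, all lower and 2 over 2-fold lower, beside 4.46% of the table, with sums of 815.2 and 444.8. Of 10 endothelial genes the 1 analysed was Vwf, at 3.87 FPKM and 5.86 FPKM. Whether a different make-up of the tissue pieces takes part in the values of the macrophage genes was not tested. With 1 library per genotype, genotype and animal cannot be told apart.

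**Figure D4:**
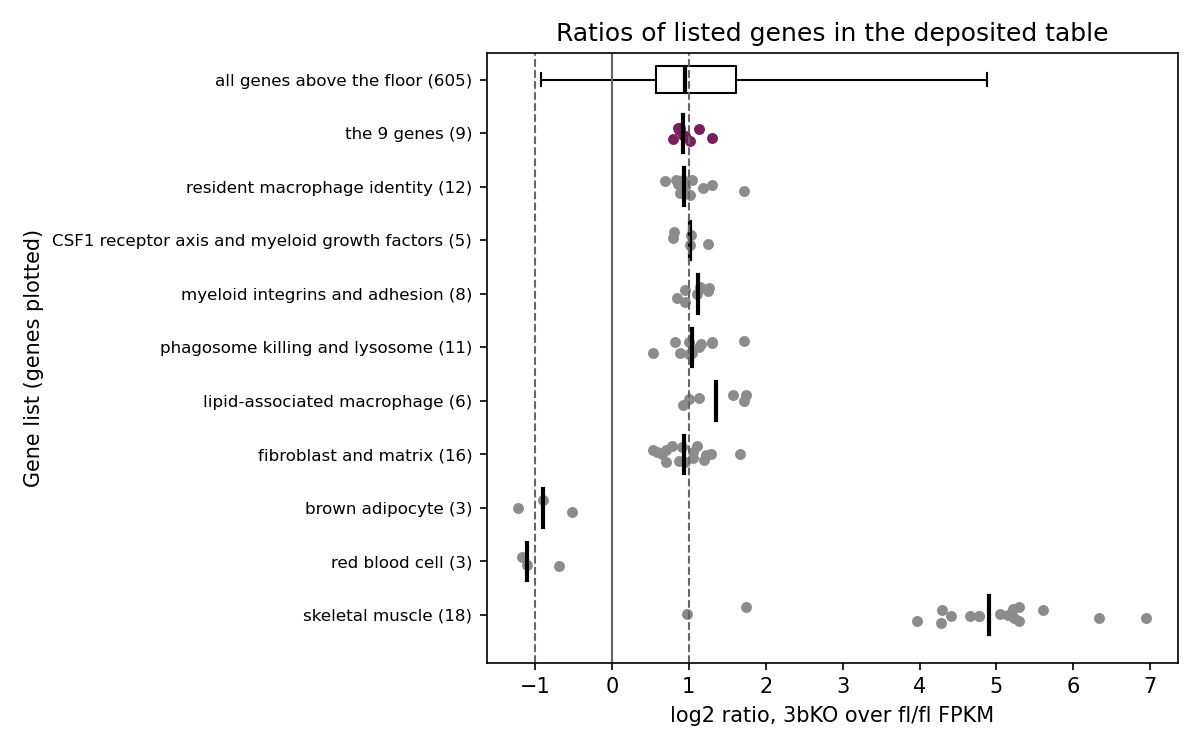
Log2 ratio of 3bKO over fl/fl FPKM for the genes of each list that are above the floor in both libraries (points, number plotted in brackets), with the median as a black bar, and for all 605 such genes of the table as a box from the lower to the upper quartile with whiskers at percentiles 5 and 95. Dashed lines mark 2-fold. The 9 genes span 0.79 to 1.31 and overlap the other macrophage lists and the fibroblast and matrix list. Most skeletal muscle genes lie far to the right, and the brown adipocyte and red blood cell genes lie below 0. After centring on the table's median, which takes in genes of low level, 6 of the 9 genes would lie below 0.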

How the data were processed

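RNA of brown adipose tissue was extracted, enriched for poly(A) mRNA and sequenced on an Illumina instrument, per the labels. The deposited values are FPKM calculated by the authors, and the submitters' processing notes name RSEM and mm10 without versions. The name of the deposited table ends in GeneDiffExpFilt, which reads as a filter on differential expression. The thresholds by which the 628 genes were selected were not stated. RefSeq symbols of GRCm38.p6 were matched to 627 of the identifiers. Ratios were 3bKO FPKM over fl/fl FPKM with a pseudocount of 0, and genes past 2-fold were counted beside the same count over the whole table. No p-value was computed, since each genotype has 1 library. The 9 genes, the gene lists and the motifs were chosen with earlier results of these data known. Named were the 9 genes, up to 6 genes of a list by the higher of their FPKM values, and the 3 genes with a log2 ratio nearest the median of the set. Other genes named, and listed genes named as not analysed here, were chosen after the table was seen. Alternatives were fold thresholds of 1.5 and 3, pseudocounts of 0.1 and 1 FPKM, a minimum of 1 FPKM in both libraries, ratios centred on the table's median with and without muscle genes, and Lyz1 and Lyz2 summed. An alternative was counted as a shift when it moved a value by over 1.5 times. The functions were tested on simulated data. Python 3.11.15 was used with NumPy 2.4.6, pandas 2.3.3 and Matplotlib 3.10.9.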

Additional observations from a re-analysis of the deposited data

How the results depend on the processing

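The direction of the 9 ratios was unchanged with pseudocounts of 0.1 and 1 FPKM, with a minimum of 1 FPKM in both libraries, and with Lyz1 and Lyz2 summed, and no ratio moved by over 1.5 times. Centred on the median log2 ratio of the table, the set's median became -0.036 with 0 genes past 2-fold, and Itgam became -0.014, Adgre1 -0.036, Lyz1 -0.078, Cd163 -0.081, Mrc1 -0.10 and Csf1 -0.17. Centred without the skeletal muscle list, the median became -0.021, again with 0 past 2-fold, and Adgre1 became -0.021, Lyz1 -0.062, Cd163 -0.066, Mrc1 -0.088 and Csf1 -0.15. These shifts follow from subtracting 0.96 or 0.94, medians of a selected table that say nothing about scaling over all genes. Both medians take in genes below 1 FPKM, a level at which no gene of the set stood. At 1.5-fold, 9 of the set, 12 of the resident macrophage list and 468 genes of the table were higher and 87 lower, and at 3-fold these counts were 0, 1, 175 and 16, as the threshold admits more or fewer genes. With a pseudocount of 1 FPKM the set had 2 genes past 2-fold and the resident macrophage list 3 in place of 5. Under the 1 FPKM minimum 174 genes of the table were over 2-fold higher in place of 296. That count was among fewer genes, 489 with a symbol outside the set. No paired analysis was possible because each genotype has 1 library. The spread of a ratio between mice is not known under any setting.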

Other observations

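The ETS letters were also searched in the promoters of the 31 other macrophage genes of the table. RefSeq held 32 promoters for 23 of these genes, some of which have several starts. The PU.1 core GAGGAAGT was in 6 of the 32 promoters, or 18.8%, beside 3.20% of all 32851 promoters, and those 6 belonged to C1qc, Cd53, Ctsc, Ctss, F13a1 and Mmp12. The ETS core GGAAGT was in 13 of the 32, or 40.6%, beside 23.8% of all promoters. Among these were Ptprc, Laptm5, Lcp1, Cd68 and C1qb. The C/EBP letters were in 3 of the 32, or 9.38%, beside 10.8%. These shares describe letters in promoters of genes picked by name, with no test, and say nothing about binding in these libraries.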
